A study of Mus musculus with 10 samples.

Results

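The cytochrome P450 genes of families 2, 3 and 4 were followed across RNA-seq libraries of mouse intestinal organoids. A gene was taken as a member where its symbol began with Cyp2, Cyp3 or Cyp4 and a subfamily letter and it was no named pseudogene, which gave 78 of 47069 genes: 49 of Cyp2, 9 of Cyp3 and 20 of Cyp4. Cytochrome P450 enzymes are membrane-bound heme proteins that insert an oxygen atom into their substrate with electrons from NADPH-cytochrome P450 reductase. The Cyp2 and Cyp3 families are best known for the oxidation of drugs, toxins and steroids, and Cyp2c and Cyp2j enzymes also form epoxides of arachidonic acid. Cyp4 enzymes mainly hydroxylate the end of fatty acid and leukotriene chains. In the gut, these genes are expressed in absorptive epithelial cells and differ between small intestine and colon.

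The organoids had been grown for 50 days in Matrigel with Noggin, EGF and R-spondin-1, from C57BL/6 mice that carried Lgr5-EGFP-CreERT2 and floxed Ppp2r1a. All 5 groups, control included, shared these alleles, and 2 libraries were made from each. The groups were control (saline), DMBA (a polycyclic aromatic carcinogen, labelled long), tamoxifen in a set labelled short (TAM short), tamoxifen in a set labelled long (TAM long), and DMBA with tamoxifen (DMBA+TAM). Tamoxifen activates the Cre enzyme in Lgr5+ stem cells alone, so a culture can also hold cells with an intact gene. What short and long mean, and whether both libraries of a group came from separate cultures or mice, is not stated in the sources used here, so p-values may measure technical spread only. The comparisons describe how the P450 genes differed between the libraries of the labelled groups. Comparisons against control share the same 2 control libraries.

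The labels were checked before the results. Ppp2r1a, the targeted gene, did not fall in any tamoxifen group. Its log2 fold change against control was 0.14 in TAM short, 0.37 in TAM long and 0.06 in DMBA+TAM, and 0.34 in DMBA. It was called higher in TAM long and in DMBA (adjusted p = 0.0213 and 0.0291, quasi-likelihood test of edgeR). Gene counts cannot, however, separate its floxed exons from the others. The groups are therefore the libraries labelled control, DMBA and so on. The names of control and TAM short libraries carry an S and those of DMBA and TAM long an L, and markers followed these letters. No name spells out a treatment, since both TAM sets are titled DSS and the DMBA+TAM set Lgr5, so the treatments were taken from the description and protocol labels. Normalized CPM are counts scaled by the library total after TMM correction. In the S libraries, the 10 small intestine enterocyte markers summed to 42393 and 45411 normalized CPM in control and 26659 and 23806 in TAM short. In the L libraries they summed to 468 to 1158. Of the 9 colon markers, 8 are in the table, and these summed to 2896 to 3772 in the S libraries and 19100 to 24190 in the L libraries. The 6 smooth muscle markers summed to 1206 to 2275 in the S libraries and 7145 to 12810 in the L libraries. Treatment and this split cannot be told apart in the comparisons of DMBA or TAM long with control. In TAM long against TAM short, the labels short and long cannot be told apart from it. The DMBA+TAM libraries held 22.0 and 32.7 CPM of 8 general epithelial markers, against 12924 to 22304 in the other 8, and 5.65 times fewer counts than the median of those 8. Treatment and this low level of epithelial markers cannot be told apart in the comparisons with DMBA+TAM.

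Of the 78 members, 22 had no count in any library, 18 had counts but at most 10 in each library, and 38 had more than 10 counts in at least 1 library. The Cyp2a genes (4 members) and Cyp2g1 were at or near 0 throughout, as were 4 of the 5 Cyp2b genes. Counts were high enough for a test in 34 members, and 44 were not tested. By a rule of level and change, 30 members are described with their values. Of these, 14 had their highest group mean in control, 10 in TAM long, 4 in DMBA+TAM, 1 in DMBA and 1 in TAM short. The rule used the highest group mean itself, so these counts describe the 30 alone. Among those of TAM long, Cyp2c66 had a mean of 3.24 normalized CPM against 3.22 in control. Cyp3a44 rests there on TAM long 1 (12.8). The 78 members summed to 4749 and 5108 normalized CPM in control 1 and 2, 2036 and 1767 in TAM short, 4794 and 2888 in TAM long, 1867 and 920.1 in DMBA, and 358 and 315 in DMBA+TAM. The libraries of TAM short, DMBA and DMBA+TAM thus all lay below control, and TAM long spread from below control into its range. The mean sum of TAM long was 0.779 times that of control, 0.974 with library totals and 1.04 as FPKM. It thus lay below control under both CPM scalings and slightly above it as FPKM, which also divides by gene length. In bulk RNA, fewer cells of a type and less RNA per cell cannot be told apart.

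**Figure D1:**
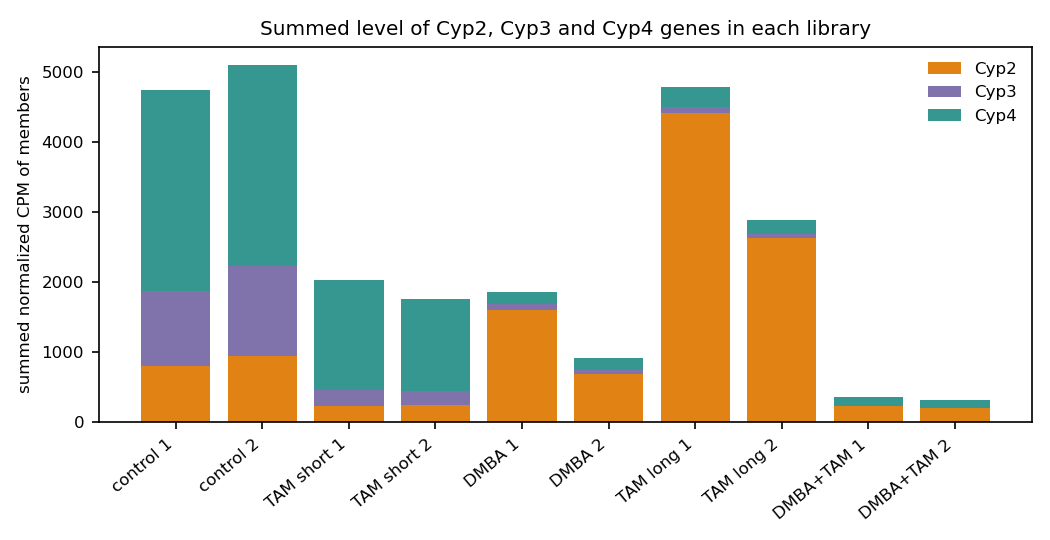
The bars show the summed level of all members in each library in normalized CPM, split by family. Cyp4 made up most of the sum in control and TAM short (2874 of 4749 in control 1), and Cyp2 most of it in DMBA and TAM long (4416 of 4794 in TAM long 1).

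The makeup of the sum differed between groups. Cyp4 genes summed to 2874 and 2882 normalized CPM in control, 1571 and 1329 in TAM short, 281 and 194 in TAM long, and 181 and 170.5 in DMBA. Cyp3 genes went from 1075 and 1273 in control to 59.4 to 96.1 in the 4 L libraries, while Cyp2 genes summed to 800 and 953 in control, 226 and 247 in TAM short, 4416 and 2634 in TAM long, 1597 and 686 in DMBA, and 233.9 and 199 in DMBA+TAM. They thus lay above control in TAM long, below it in TAM short and DMBA+TAM, and on both sides of it in DMBA. Cyp3 was nearly empty in DMBA+TAM, with sums of 0 and 0.44. Scaled by gene length, Cyp4 genes also led in control 1 (1221 of 1935 FPKM) and Cyp2 genes in TAM long 1 (2374 of 2617). Per gene length, in the deposited FPKM (fragments scaled by gene length and library total), the highest member was Cyp4f14 in control (485 ± 36.2, SD, n = 2) and TAM short (303 ± 41.8). It was Cyp2c55 in DMBA (322 ± 327) and TAM long (1380.1 ± 563), and Cyp2e1 in DMBA+TAM (100.1 ± 6.64). In DMBA the spread of Cyp2c55 was as wide as its mean, so its order against Cyp2d34 (112 ± 25.2) is not settled there. In control, the next 3 were Cyp4f16 (276 ± 39.3), Cyp3a13 (238 ± 14.4) and Cyp4v3 (213 ± 4.79), of which Cyp4f16 and Cyp3a13 did not differ beyond their spread.

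**Figure D2:**
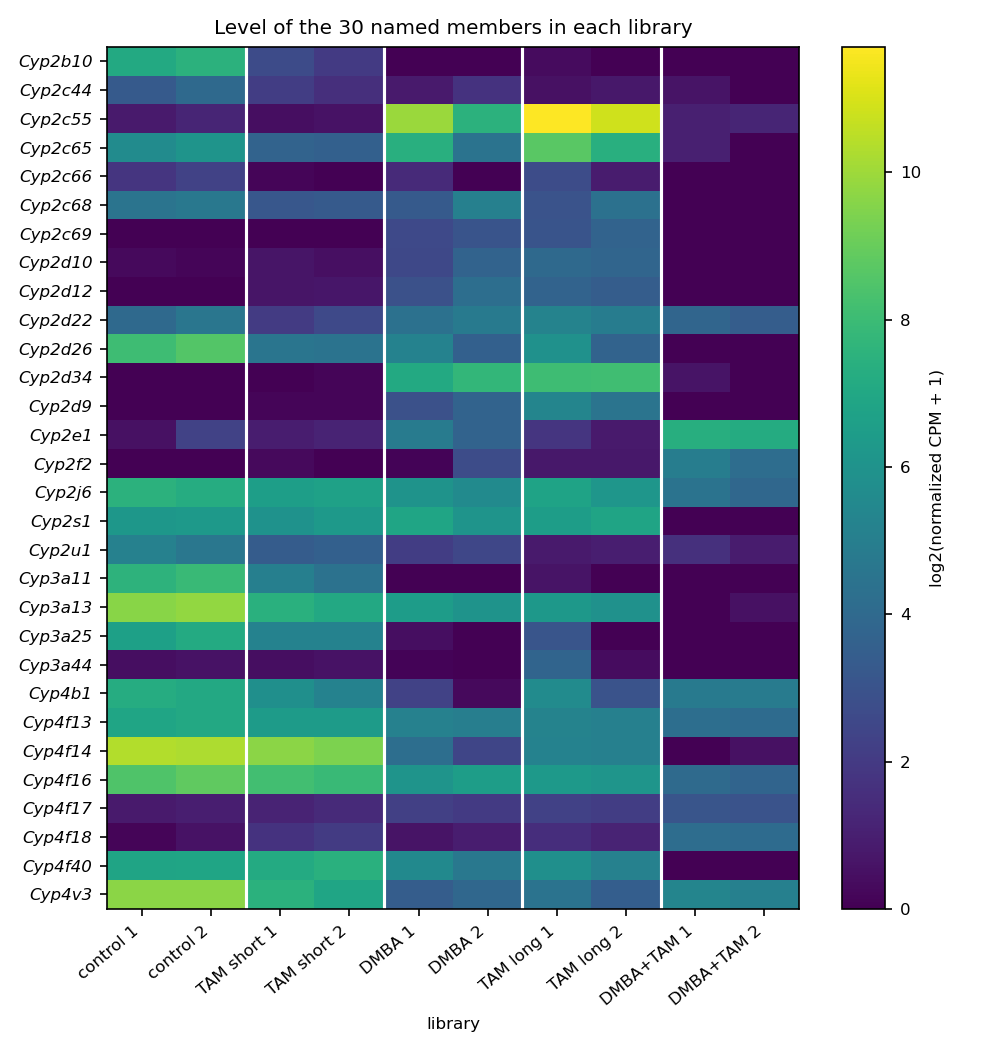
Each cell of the map is the log2(normalized CPM + 1) of 1 of the 30 named members (rows) in 1 library (columns, ordered by group). Cyp2c55 is the brightest row in TAM long and DMBA 1, Cyp2d34 in DMBA 2 (216 normalized CPM), Cyp4f14 in control and TAM short, and Cyp2e1 in DMBA+TAM.

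Against control, the DMBA libraries held less of Cyp3a11, Cyp3a13, Cyp3a25, Cyp4f14 and Cyp4v3 and more of Cyp2c55, Cyp2c69, Cyp2d34 and Cyp2d9, among others. In DMBA against control, 9 of the 34 tested members were higher (24.5% of all tested genes were) and 15 were lower (23.3% of all tested genes), at an adjusted p under 0.05 by the quasi-likelihood test of edgeR, adjusted over 16179 genes by Benjamini and Hochberg. The median log2 fold change was -0.64 over the members tested and 0.07 over all genes tested. In TAM long against control, 11 were higher and 15 lower (23.2% and 22.8% of all tested genes), with a median of -0.58 against 0.05. Of the members tested, 26.5% and 32.4% were thus higher in DMBA and TAM long, and 44.1% were lower in each.

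In TAM short against control, 1 member was higher and 11 were lower, against 6.52% and 7.8% of all tested genes, with a median of -1.15 over the members and -0.04 over all genes. When 1 of the 4 libraries was left out, 5 to 7 were called lower, and 20 were lower where only these 4 libraries were fitted, and also with no filter on low counts. Of the 10 small intestine enterocyte markers, 6 were lower and 1 higher in TAM short against control. They summed to 42393 and 45411 normalized CPM in control and 26659 and 23806 in TAM short. Their part in the fall of the members was not tested. In DMBA+TAM against control, 4 members were higher and 19 lower (29.0% and 35.3% of all tested genes). The median was -3.97, or -2.62 with the 11 members at a count floor set to their bound, and -0.17 over all genes. Against DMBA, the DMBA+TAM libraries had 6 members higher and 18 lower (25.2% and 29.9% of all tested genes). Without DMBA+TAM library 2, 3 were higher. In TAM long against TAM short, 12 were higher and 11 lower (22.0% and 20.3% of all tested genes), and the median was 0.65 against 0.05 over all genes. A member could pass the filter on low counts through the group where it is high, so these counts describe the members tested and not the family.

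**Figure D3:**
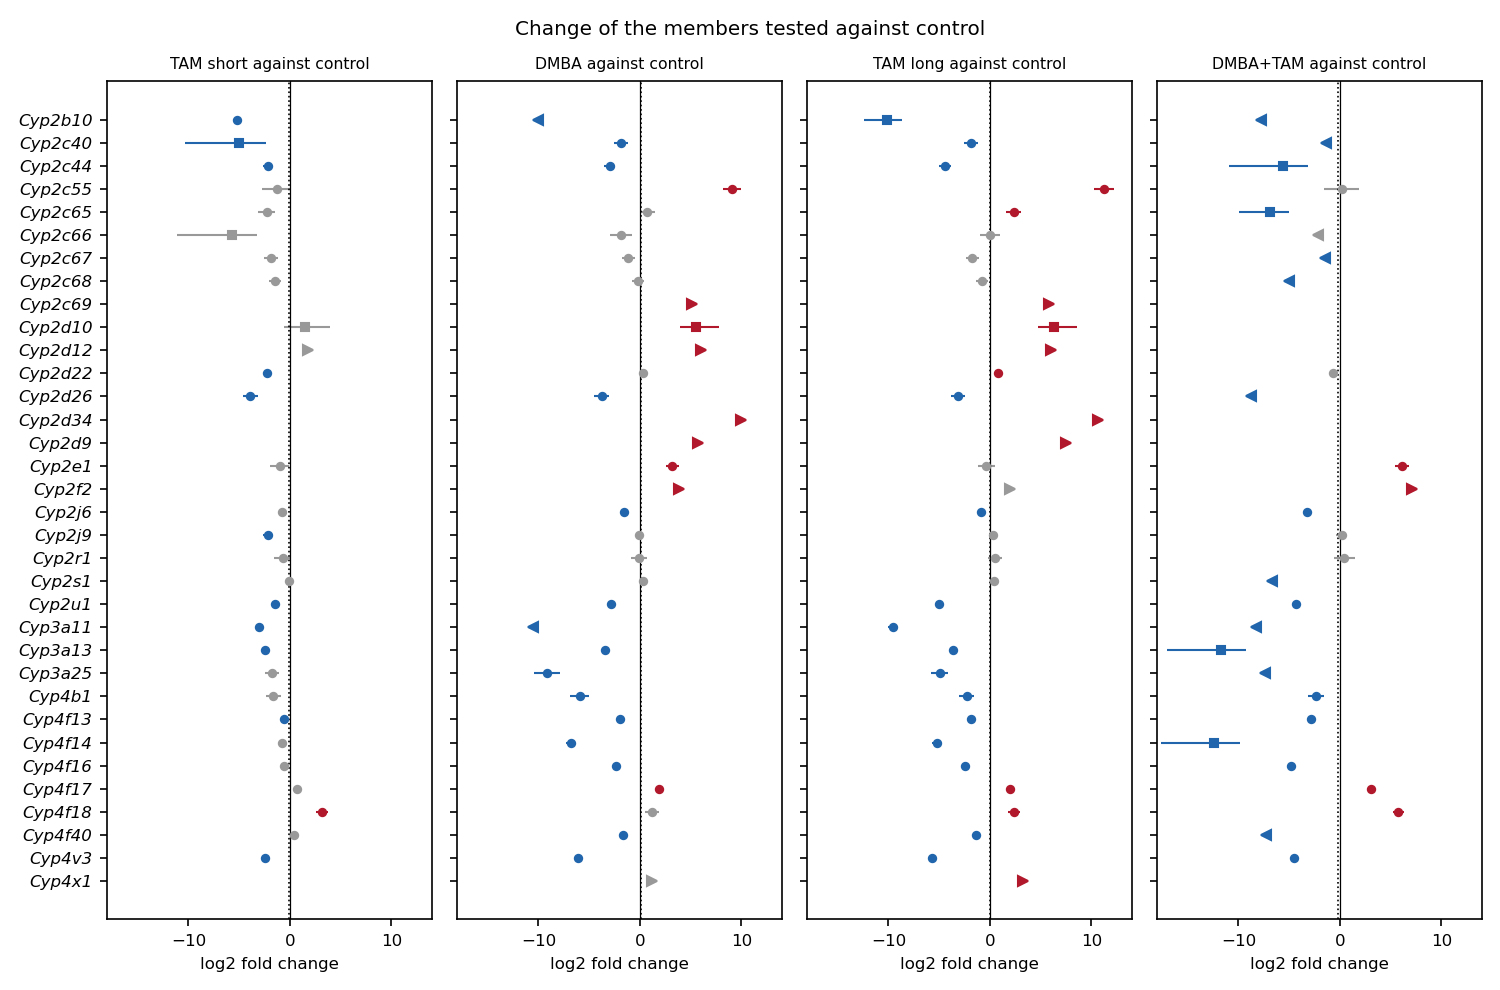
The log2 fold change against control of the members tested is shown for 4 comparisons, with members higher in red, lower in blue and not called in grey. Circles are fitted values with their SE, squares are ratios with 95% counting intervals, triangles are bounds where a group was at 0, members at or under the count floor in both groups have no symbol, and the dotted line is the median of all genes. Cyp2d34, Cyp2c55 and Cyp2d9 lie far to the right in DMBA and TAM long, and Cyp3a11 and Cyp2b10 to the left of 0 in all 4 panels.

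Of the 9 Cyp3a genes, Cyp3a11, Cyp3a13 and Cyp3a25 were lower than control in DMBA, TAM long and DMBA+TAM. Cyp3a11, the main mouse counterpart of human CYP3A4 and a classic target of the pregnane X receptor, had 189.9 and 246 normalized CPM in control, 32.0 and 20.3 in TAM short, 0.52 and 0 in TAM long, 0 and 0 in DMBA, and 0 and 0 in DMBA+TAM. Its groups did not overlap with control. It was at least 1458-fold lower in DMBA and at least 302-fold lower in DMBA+TAM, computed against a floor of 3 counts over the group, and its log2 fold change was -3.06 ± 0.33 (SE) in TAM short (adjusted p = 0.000968, edgeR), a call lost with DESeq2. Cyp3a13, the most abundant Cyp3a gene here, had 783 and 883 in control, 172 and 135 in TAM short, 75.2 and 59.1 in TAM long, 88.6 and 63.4 in DMBA, and 0 and 0.44 in DMBA+TAM. Every library of the other 4 groups thus lay below both control libraries, with log2 fold changes of -2.44 ± 0.22 in TAM short, -3.45 ± 0.23 in DMBA and -3.63 ± 0.23 in TAM long (adjusted p = 0.000125, 3.2e-06 and 2.37e-06, edgeR). In DMBA+TAM, 1 count in all gave a ratio of 3470.1 (95% counting interval 623 to 137071).

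Cyp3a25, a steroid-oxidizing member of the same cluster, had 100.9 and 143 normalized CPM in control, 35.1 and 35.5 in TAM short, 7.57 and 0 in TAM long, 0.36 and 0 in DMBA, and 0 in both DMBA+TAM libraries. It was called lower in DMBA, TAM long and DMBA+TAM, but not in TAM short (log2 fold change -1.79 ± 0.71, adjusted p = 0.137, edgeR), where its 2 libraries still lay below control. In TAM long it was read in the first library alone, and that call was lost with DESeq2. The same library held 149 of the counts of Cyp3a44, which had 12.8 normalized CPM there and at most 0.50 in any other, so this gene was not tested. Of the 9 Cyp3a genes, 4 had no count in any library. For Cyp3a41a and Cyp3a41b, only 9.18% and 11.8% of the 100-base transcript pieces stand in no transcript of another gene. Shared reads of these genes may have been dropped in the counting.

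Cyp2b10, the standard target of the constitutive androstane receptor in liver, had the largest fall called in TAM short. It had 136 and 181 normalized CPM in control, 5.41 and 3.02 in TAM short, 0.26 and 0 in TAM long, 0 and 0 in DMBA, and 0 and 0 in DMBA+TAM. Control stood apart from all other libraries. The log2 fold change was -5.21 ± 0.34 in TAM short (adjusted p = 0.000108, edgeR). Cyp2b10 was at least 1059.7-fold lower in DMBA and at least 219.5-fold lower in DMBA+TAM.

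The Cyp2c genes parted company. Promoters of 4 of them are shown, since they lie in 1 cluster and 3 of them share a letter run. The windows are the 200 bases before the RefSeq start site, on the strand of the gene, from GRCm38.p6: chr19:39006819-39007018 (plus strand) for Cyp2c55, chr19:39060806-39061005 (plus) for Cyp2c65, chr19:39741102-39741301 (minus) for Cyp2c68 and chr19:39886770-39886969 (minus) for Cyp2c69. Capitals mark matches to the motifs searched, which are the GATA motif in the first, the HNF4 motif in the other 3 and the AHR motif, on the opposite strand, in Cyp2c68.
Cyp2c55: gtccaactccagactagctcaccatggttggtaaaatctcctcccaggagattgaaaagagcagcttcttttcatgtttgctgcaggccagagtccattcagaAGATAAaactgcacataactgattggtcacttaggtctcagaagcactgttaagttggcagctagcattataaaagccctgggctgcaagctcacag
Cyp2c65: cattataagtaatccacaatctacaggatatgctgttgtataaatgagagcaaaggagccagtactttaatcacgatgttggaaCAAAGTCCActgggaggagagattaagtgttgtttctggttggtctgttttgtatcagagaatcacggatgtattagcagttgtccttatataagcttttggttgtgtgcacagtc
Cyp2c68: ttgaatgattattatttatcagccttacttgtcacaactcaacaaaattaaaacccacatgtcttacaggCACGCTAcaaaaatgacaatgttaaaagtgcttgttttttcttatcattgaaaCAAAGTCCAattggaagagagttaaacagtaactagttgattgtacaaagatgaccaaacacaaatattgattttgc
Cyp2c69: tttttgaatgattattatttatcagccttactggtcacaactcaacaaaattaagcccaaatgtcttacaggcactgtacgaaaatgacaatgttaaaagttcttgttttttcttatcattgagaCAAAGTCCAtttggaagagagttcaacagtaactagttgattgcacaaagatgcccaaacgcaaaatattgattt

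The HNF4 run, CAAAGTCCA, starts at position -116 in Cyp2c65, -77 in Cyp2c68 and -75 in Cyp2c69, counted from the start site. Searched on both strands, it stood in 10 of the 63 members with a promoter in the table and in 0.318% of 27025 promoters of all genes. The other 7 were Cyp2c40, Cyp2c67, Cyp2c70, Cyp3a11, Cyp3a16, Cyp3a41a and Cyp3a41b. Members that carry it were highest in control (Cyp3a11), highest in TAM long (Cyp2c65) or without a count in any library (Cyp3a16). The GATA run AGATAA stood in 8 of the 63 and in 7.98% of all promoters, and the nuclear receptor half-site AGGTCA, which may lie within longer sites, in 13 of the 63 and in 11.2%. The AHR run TNGCGTG stood in 1 and in 3.36%, the CDX run TTTATG in 8 and in 8.73%, and the HNF1 half-site GTTAAT in 6 and in 5.09%. A match is a run of letters in this window and not a measured site.

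Cyp2c55, a P450 of the large bowel that hydroxylates arachidonic acid, reached the highest FPKM group mean of any member. It had 0.79 and 1.32 normalized CPM in control and 0.34 and 0.50 in TAM short, but 3336 and 1871 in TAM long and 986.1 and 185 in DMBA. In DMBA+TAM it had 1.05 and 1.32. The 4 L libraries all lay far above the other 6, and the DMBA libraries differed widely between themselves. The log2 fold change against control was 9.10 ± 0.90 in DMBA (adjusted p = 3.92e-05) and 11.26 ± 0.95 in TAM long (1.45e-05, edgeR). The gene made up 69.6% and 64.8% of all member CPM in the TAM long libraries.

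Cyp2c65, the next gene on the chromosome and also expressed in the gut, was already present in control. It had 49.9 and 65.5 normalized CPM in control, 12.2 and 11.2 in TAM short, 419 and 167 in TAM long, 168 and 20.7 in DMBA, and 1.05 and 0 in DMBA+TAM. The DMBA libraries lay on both sides of control, and the TAM long libraries lay above it. Its log2 fold change in TAM long was 2.35 ± 0.75 (adjusted p = 0.0281, edgeR). The call was lost without either control library (2.16 and 2.55) or without TAM long 1 (1.53), and with all libraries kept under DESeq2 (2.34) and limma on log2(FPKM + 0.1) (2.53). Cyp2c66, the third gene in the row, had at most 5.59 normalized CPM, in TAM long 1, and was called only in TAM long against TAM short (ratio 57.0, 95% counting interval 9.92 to 2282). That call was lost without TAM long 1, without either TAM short library and with limma on log2(FPKM + 1) (1.36).

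Cyp2c68 had 21.9 and 24.4 normalized CPM in control, 8.01 and 8.94 in TAM short, 6.89 and 19.9 in TAM long, 8.91 and 33.0 in DMBA, and 0 in both DMBA+TAM libraries. Both TAM long libraries and DMBA 1 lay below control and DMBA 2 above it. Only DMBA+TAM, at least 32.1-fold lower, was called against control. Cyp2c69, further along the cluster, had no count in control, TAM short or DMBA+TAM, but 7.32 and 12.3 in TAM long and 4.99 and 7.17 in DMBA, at least 55.1-fold and 34.1-fold higher than control. Only 80.2% and 63.7% of the 100-base pieces of these genes' transcripts stand in no transcript of another gene, so the authors' counting may have split or dropped shared reads. Cyp2c44, an arachidonic acid epoxygenase that lies apart from the cluster, had 8.91 and 14.9 in control and at most 3.38 in any other library, and was called lower in all 4 groups against control. Its TAM short call (log2 fold change -2.13) was lost without any 1 of the 4 libraries and with limma on log2(FPKM + 0.1) (-1.96).

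The Cyp2d genes showed a similar division. Cyp2d34 had no count in either control library, 0 and 0.13 normalized CPM in TAM short, 265 and 280.3 in TAM long, 137 and 216 in DMBA, and 0.53 and 0 in DMBA+TAM. The L libraries thus held nearly all of its counts, and it was at least 984-fold higher in DMBA and at least 1559-fold higher in TAM long than in control. Cyp2d9, a steroid hydroxylase known from male liver, had no count in control, 39.7 and 21.7 in TAM long and 6.59 and 12.3 in DMBA. It was at least 179-fold and 52.3-fold higher there.

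Cyp2d10 and Cyp2d12 were also high in the L libraries. Cyp2d12 had its highest mean in DMBA (12.05 ± 7.84, SD, n = 2), but within the spread of TAM long (11.08 ± 1.38). Cyp2d10 had 0.23 and 0.12 normalized CPM in control, 14.98 and 13.2 in TAM long and 4.72 and 12.2 in DMBA. Cyp2d12 had none in control, 12.1 and 10.1 in TAM long and 6.51 and 17.6 in DMBA. In TAM short both had between 0.38 and 0.63, and in DMBA+TAM neither had a count. Of these, Cyp2d9 and Cyp2d10 share sequence with other genes (90.1% and 85.2% of pieces unique).

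Cyp2d26, the last gene of the same cluster, went the other way. It had 265 and 374 normalized CPM in control, 22.5 and 20.8 in TAM short, 60.1 and 12.4 in TAM long, 35.4 and 10.9 in DMBA, and 0 in both DMBA+TAM libraries. Control lay above all other libraries, and TAM short, DMBA and TAM long overlapped one another. The log2 fold change was -3.88 ± 0.72 in TAM short, -3.77 ± 0.71 in DMBA and -3.13 ± 0.69 in TAM long (adjusted p = 0.00893, 0.00255 and 0.00578, edgeR). The TAM short call was lost without control 2 or either TAM short library (-3.61 to -3.94). Cyp2d22, the counterpart of human CYP2D6, was read in every library, with 15.1 and 23.0 in control, 3.04 and 5.04 in TAM short, 37.0 and 29.1 in TAM long, 19.4 and 26.7 in DMBA, and 13.2 and 10.1 in DMBA+TAM. It was lower than control in TAM short (log2 fold change -2.24 ± 0.31) and higher in TAM long (0.80 ± 0.27, adjusted p = 0.033, edgeR), and the latter call was lost without control 1 (0.52) or either TAM long library (0.61 and 0.95).

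**Figure D4:**
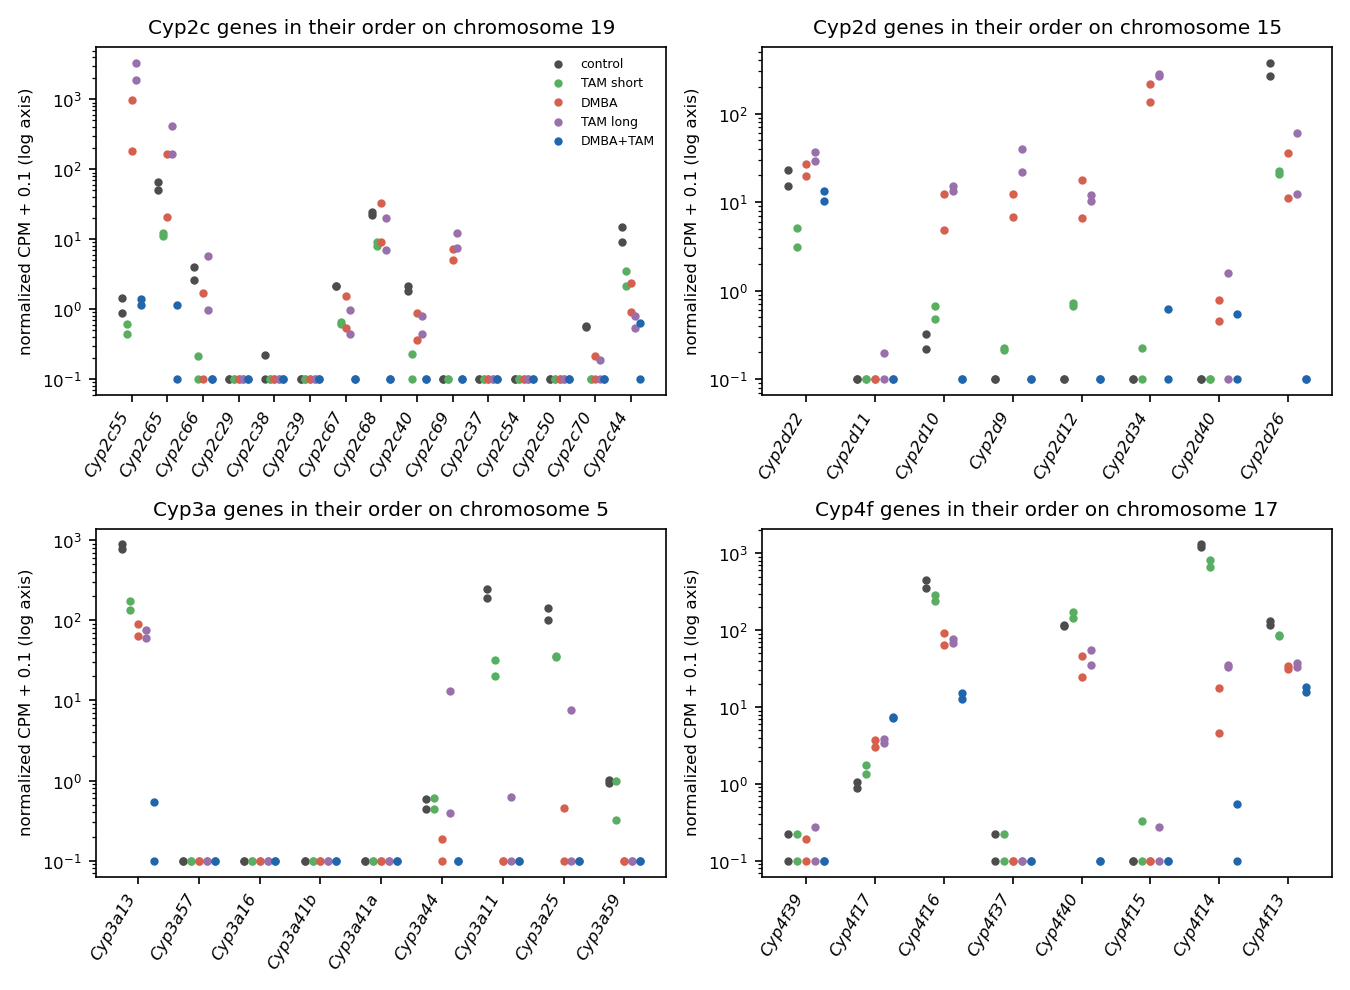
Each dot is 1 library and each column 1 gene, in order along the chromosome, for the Cyp2c, Cyp2d, Cyp3a and Cyp4f genes, in normalized CPM + 0.1 on a log axis, so a dot at 0.1 is a gene with no count. Cyp2c55 and Cyp2d34 are high in DMBA and TAM long alone, while Cyp2d26, Cyp3a11 and Cyp4f14 are highest in control.

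The members lie in a few dense clusters, in positions the deposited table gives on GRCm38.p6. The Cyp2d cluster has 8 genes within 424 kb of chromosome 15 (chr15:82370528-82794245), and Cyp2d34 and Cyp2d26, with opposite patterns, both stand in it. The Cyp2c cluster has 14 genes within 1180.3 kb of chromosome 19 (chr19:39007019-40187333), of which 9 had a count in some library. The cluster of 8 Cyp3a genes on chromosome 5 spans 768 kb, and Cyp3a13 lies outside it at chr5:137892932-137921619. The 8 Cyp4f genes of chromosome 17 span 479 kb, and Cyp4f18 lies on chromosome 8. All 78 members are annotated as protein-coding in GENCODE M21. Since neighbours on the same chromosome differed this much, each gene is described by its own counts.

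The remaining Cyp2 genes had 3 different patterns. Cyp2j6, known from the small intestine, had 182 and 151 normalized CPM in control, 94.8 and 102 in TAM short, 109 and 71.0 in TAM long, 63.6 and 46.9 in DMBA, and 21.1 and 14.1 in DMBA+TAM. All other libraries lay below control, with log2 fold changes of -1.59 ± 0.23 in DMBA and -3.26 ± 0.28 in DMBA+TAM (adjusted p = 0.000399 and 4.33e-06, edgeR). The call in TAM long (-0.89) was lost without control 1, without TAM long 2, under scaling by library totals (-0.57) and under both limma fits (-0.58 and -0.60). Cyp2u1, which hydroxylates long-chain fatty acids, had 34.9 and 23.8 in control, 9.47 and 11.1 in TAM short and 0.77 to 4.71 in the L libraries. In DMBA+TAM it had 2.11 and 0.88. It was lower in all 4 groups, with log2 fold changes of -5.05 ± 0.34 in TAM long and -4.33 ± 0.42 in DMBA+TAM (adjusted p = 3.48e-06 and 1.06e-05, edgeR). The libraries of these 2 groups overlapped, so their order is not settled. Its TAM short call was lost without control 1 or TAM short 1 and with limma on log2(FPKM + 0.1) (-1.38).

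Cyp2s1, a P450 of epithelia that can be induced through the aryl hydrocarbon receptor, was at similar levels in the other 8 libraries. It had 73.3 and 77.6 normalized CPM in control, 62.0 and 77.3 in TAM short, 91.4 and 114 in TAM long, and 117 and 65.2 in DMBA. It was called in none of the 4 comparisons among these groups, with log2 fold changes from -0.12 ± 0.25 to 0.56 ± 0.25. It had no count in either DMBA+TAM library, at least 104.9-fold lower than control, where epithelial markers were also nearly absent.

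The 4 tested members that rose in DMBA+TAM against control were Cyp2e1, Cyp2f2, Cyp4f17 and Cyp4f18. Cyp2e1, which oxidizes ethanol and other small molecules, had 161 and 147 normalized CPM in DMBA+TAM, 27.9 and 12.2 in DMBA, and 0.45 to 3.97 in the other 6 libraries. DMBA+TAM lay above all others and DMBA above the rest. Its log2 fold change against control was 6.14 ± 0.67 in DMBA+TAM and 3.21 ± 0.65 in DMBA (adjusted p = 2.3e-05 and 0.0029, edgeR), and DMBA+TAM was also above DMBA (2.93 ± 0.53, adjusted p = 0.00105, edgeR).

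Cyp2f2, known for naphthalene oxidation in club cells of the airway, had 30.6 and 17.1 normalized CPM in DMBA+TAM and none in control. In DMBA it had 0.09 and 5.60, which do not allow a firm statement, since the call in DMBA was lost without DMBA 2 or either control library and under both limma fits. Cyp2f2 was at least 133-fold higher in DMBA+TAM than in control. Cyp4f18, a leukotriene B4 hydroxylase of myeloid cells, had 17.4 and 15.8 in DMBA+TAM, 2.25 and 3.15 in TAM short, 1.27 to 1.89 in TAM long and 0.11 to 0.90 in the other libraries. It rose against control in DMBA+TAM (log2 fold change 5.75 ± 0.56, adjusted p = 1.06e-05, edgeR) and was the single member called higher in TAM short (3.14 ± 0.59, adjusted p = 0.00726, edgeR). The TAM short call was lost without control 1 or TAM short 2. Cyp4f18 was also called higher in TAM long (2.39 ± 0.61, adjusted p = 0.0103, edgeR), a call lost without control 1 or TAM long 1.

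Cyp4f17, a lesser known member of the same subfamily, had 7.37 and 7.03 normalized CPM in DMBA+TAM, 2.91 to 3.79 in the L libraries and 0.79 to 1.64 in the S libraries, so the 3 sets did not overlap. Its log2 fold change was 3.02 ± 0.40 in DMBA+TAM, 2.01 ± 0.37 in TAM long and 1.90 ± 0.37 in DMBA (adjusted p = 9.23e-05, 0.0017 and 0.00237, edgeR). Fat cell, fibroblast, macrophage and endothelial markers also had their highest sums in DMBA+TAM. The 6 smooth muscle markers did not. These summed to 1461 and 1602 there, 1206 to 2275 in the S libraries and 7145 to 12810 in the L libraries. The 6 fat cell markers summed to 4646 and 2252 normalized CPM in DMBA+TAM against 46.5 to 215 elsewhere. The 6 fibroblast markers summed to 30551 and 31458 against 615 to 2005, the 6 macrophage markers to 3414 and 3260 against 134 to 216, and the 5 endothelial markers to 543 and 547 against 51.1 to 100.5. The 3 club cell markers summed to 0.53 and 0.88 in DMBA+TAM and to 0 elsewhere, and the 6 hepatocyte markers to 3.69 and 0.44 in DMBA+TAM and at most 52.9 elsewhere. Their part in the results was not tested.

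**Figure D5:**
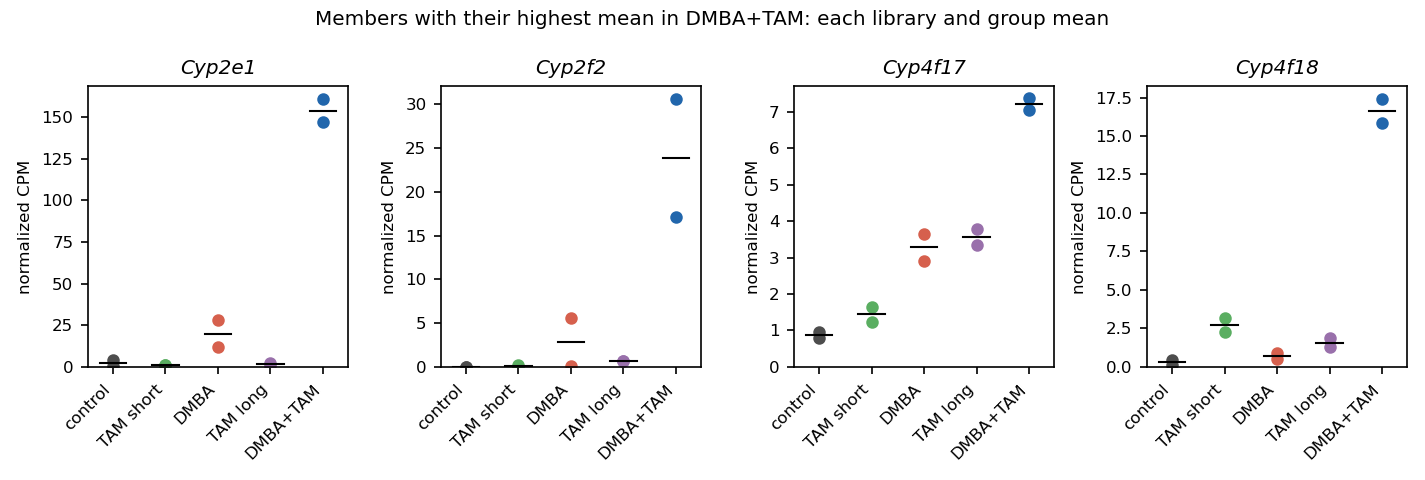
Normalized CPM of Cyp2e1, Cyp2f2, Cyp4f17 and Cyp4f18 is shown for each library (dots) with the mean of each group (lines). Both DMBA+TAM libraries lie above all others in each panel, and for Cyp2e1 the 2 DMBA libraries, at 12.2 and 27.9, come next.

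Cyp4 transcripts made up most of the control level and fell in the L libraries. Cyp4f14, which hydroxylates leukotriene B4 and fatty acids, had 1309.7 and 1219 normalized CPM in control, 815 and 672 in TAM short, 35.3 and 33.0 in TAM long, 17.8 and 4.48 in DMBA, and 0 and 0.44 in DMBA+TAM. TAM short lay below control but was not called (log2 fold change -0.77 ± 0.40, adjusted p = 0.247, edgeR), while the log2 fold change was -6.80 ± 0.53 in DMBA and -5.21 ± 0.48 in TAM long (adjusted p = 8.48e-06 and 2.64e-05, edgeR). Cyp4v3, the counterpart of human CYP4V2 and a fatty acid hydroxylase, had 822 and 824 in control, 177 and 116 in TAM short, 21.1 and 10.3 in TAM long, 9.98 and 13.9 in DMBA, and 39.0 and 33.0 in DMBA+TAM. Control stood far above all others. DMBA+TAM also lay above every L library, by a log2 fold change of 1.59 ± 0.35 over DMBA (adjusted p = 0.00335, edgeR).

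In the L libraries, Cyp4f16, Cyp4f13 and Cyp4f40 of the same cluster kept more of their control level than Cyp4f14. Cyp4f16 had 358 and 454 normalized CPM in control, 288 and 243 in TAM short, 64.7 to 91.7 in the L libraries, and 15.3 and 12.8 in DMBA+TAM. Cyp4f13 had 119 and 132 in control, 85.6 and 84.1 in TAM short, 31.0 to 36.8 in the L libraries, and 17.9 and 15.8 in DMBA+TAM. For both genes every set lay apart from the next, in the same order. The fall of Cyp4f13 in TAM short (log2 fold change -0.56, adjusted p = 0.0102, edgeR) was lost without control 2, without either TAM short library and under both limma fits. That of Cyp4f16 there missed the threshold (-0.62, adjusted p = 0.0528, edgeR).

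Cyp4f40 was the 1 named member with its highest mean in TAM short, at 143 and 173 normalized CPM against 114 and 117 in control (log2 fold change 0.45 ± 0.28, adjusted p = 0.334, edgeR). It had 24.7 to 55.1 in the L libraries and none in DMBA+TAM. Cyp4b1, a fatty acid hydroxylase known to activate plant furans, varied widely between libraries of 1 group, with 149 and 132 in control, 55.5 and 35.9 in TAM short, 49.4 and 6.96 in TAM long, 4.01 and 0.22 in DMBA, and 26.9 and 28.6 in DMBA+TAM. Control lay above all others. Its call in DMBA held (log2 fold change -5.94 ± 0.94, adjusted p = 0.000701, edgeR). Those in TAM long (-2.30) and DMBA+TAM (-2.34) were lost without either control library, under scaling by library totals (-1.98 and -1.85), with DESeq2 and with limma on log2(FPKM + 0.1). The former was also lost without TAM long 2, and the latter without either DMBA+TAM library and with limma on log2(FPKM + 1).

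TAM long and TAM short, both labelled tamoxifen, differed in many members. TAM long exceeded TAM short in Cyp2c55 by a log2 fold change of 12.56 ± 1.03 (adjusted p = 2.08e-05, edgeR) and in Cyp2d10 by 4.85 ± 0.57 (0.000257), and lay below it in Cyp3a11 by -6.50 ± 0.56 (9.34e-05) and in Cyp4f14 by -4.44 ± 0.47 (8.34e-05). Cyp2j6 and Cyp2d26 were not called between them (-0.13 ± 0.22 and 0.75 ± 0.68). Against DMBA, the DMBA+TAM libraries were lower in Cyp2c55 (-8.92 ± 1.02, adjusted p = 4.78e-05, edgeR) and at least 131-fold lower in Cyp2s1. They were higher in Cyp4f18 (4.53 ± 0.49, adjusted p = 3.35e-05, edgeR) and in Cyp4b1 (3.61 ± 1.02, adjusted p = 0.0131, edgeR), and the latter call was lost without DMBA+TAM 2 (3.56).

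Most genes on a list of P450 partners, which holds Pgrmc1 and Pgrmc2 beside the electron carriers, were lower than control too. Of these 7 genes, 5 were lower than control in TAM short and 6 each in DMBA and TAM long, and none was higher. Pgrmc1 and Pgrmc2 were among the 6 in DMBA and in TAM long. Over all tested genes, 7.8% were lower in TAM short, 22.8% in TAM long and 23.3% in DMBA. In DMBA+TAM, 5 were lower and 1, Cyb5r1, was higher (35.3% and 29.0% of all tested genes). The median log2 fold change of the list was -0.88 in TAM short, -1.30 in TAM long, -1.36 in DMBA and -1.84 in DMBA+TAM, against all-gene medians of -0.04, 0.05, 0.07 and -0.17. The small intestine enterocyte markers moved with this list, with 6 of 10 lower in TAM short and 9 of 10 in each of the other groups, and in DMBA+TAM all 8 general epithelial markers were lower. Their part in the result was not tested. Cyb5b, which encodes a cytochrome b5 of the outer mitochondrial membrane, had 952 ± 98.0 (SD, n = 2) normalized CPM in control, 667 ± 22.5 in TAM short, 386 ± 26.2 in TAM long, 381 ± 13.7 in DMBA and 83.5 ± 9.29 in DMBA+TAM. Pgrmc1, a heme protein that binds P450 enzymes, had a log2 fold change of -1.86 in DMBA and -0.25 in TAM short. Cyb5r3, the cytochrome b5 reductase, fell by 2.09 on the log2 scale in TAM short and by 1.79 in DMBA. Por, the reductase itself, went from 245 ± 49.5 in control to 75.2 ± 1.92 in TAM short and 68.4 ± 9.74 in DMBA+TAM, and is named here after its values were seen.

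In DMBA+TAM, most regulators of P450 genes fell, and so did all 8 general epithelial markers (22.0 and 32.7 normalized CPM in all, against 12924 to 22304 in the other 8 libraries), whose part in this fall was not tested. Of 14 nuclear receptors and other regulators, 1 was higher and 2 lower in TAM short, 2 and 6 in TAM long, 2 and 5 in DMBA, and 1 and 12 in DMBA+TAM against control. Over all tested genes, 6.52% were higher and 7.8% lower in TAM short, 23.2% and 22.8% in TAM long, 24.5% and 23.3% in DMBA, and 29.0% and 35.3% in DMBA+TAM. Hnf4a, a nuclear receptor of liver and gut epithelium, had 956 ± 24.0 normalized CPM in control, 1352 ± 19.4 in TAM short, 681 ± 3.03 in TAM long and 764 ± 52.7 in DMBA, but 1.27 ± 1.18 in DMBA+TAM. The vitamin D receptor Vdr had 274 to 307 as group means in the other 4 groups and 29.8 ± 2.64 in DMBA+TAM. Cdx2, an intestinal homeobox gene, had 163 to 224 as group means and 0.26 ± 0.37 in DMBA+TAM. Chosen after their values were seen, Hnf4g had 351 ± 31.7 in control and 18.6 ± 4.15 in DMBA, the pregnane X receptor gene Nr1i2 had 161 ± 2.07 and 57.6 ± 6.5, and the constitutive androstane receptor gene Nr1i3 had 4.38 ± 1.94 in control and no count in TAM short. Hnf4g and Nr1i2 were also called lower in TAM long (log2 fold change -3.55 and -1.06) and DMBA+TAM, but not in TAM short. Nr1i3 was called lower in all 4 groups against control. Ahr, the receptor for aromatic hydrocarbons such as DMBA, did not pass the test in DMBA (log2 fold change 0.35, adjusted p = 0.16, edgeR) and was the 1 regulator higher in DMBA+TAM (1.34, adjusted p = 0.00024, edgeR).

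A list of 9 other oxidizing and hydrolysing enzymes holds epoxide hydrolases, alcohol and aldehyde dehydrogenases and flavin monooxygenases. Of these, 0 were higher and 4 lower in TAM short, 2 and 4 in TAM long, 3 and 3 in DMBA, and 4 and 4 in DMBA+TAM against control. Over all tested genes, the shares were 24.5% higher and 23.3% lower in DMBA and 29.0% and 35.3% in DMBA+TAM. In TAM short these shares were 6.52% and 7.8%, and in TAM long 23.2% and 22.8%. Of 10 small intestine enterocyte markers, 6 were lower and 1 higher in TAM short, and 9 were lower in each other group. In DMBA+TAM all 8 general epithelial markers were lower, and all 6 fibroblast and all 6 macrophage markers higher. Their part in these changes was not tested. Adh1, an alcohol dehydrogenase, had 183 ± 71.0 normalized CPM in control, 21.8 ± 0.44 in TAM short, 247 ± 71.3 in TAM long, 495 ± 327 in DMBA and 15.9 ± 1.70 in DMBA+TAM. Aldh3a2, which oxidizes fatty aldehydes, had 232 ± 8.79 in control, 171 ± 0.83 in TAM short, 125 ± 8.25 in TAM long, 96.3 ± 1.24 in DMBA and 48.3 ± 1.75 in DMBA+TAM, lower in all 4 groups. Fmo5, a flavin monooxygenase, had 324 ± 51.7 in control, 25.9 ± 23.8 in DMBA and 6.5 ± 0.49 in DMBA+TAM. Of the 4 epoxide hydrolase genes, Ephx1 and Ephx2 are named after their values were seen. Ephx1, the microsomal enzyme, had 9.10 ± 0.73 in control and 30.2 ± 7.0 in DMBA (log2 fold change 1.73, adjusted p = 0.00012, edgeR), and Ephx2, the soluble enzyme, had 269 ± 96.0 and 16.1 ± 5.19 (-4.05, adjusted p = 0.00011, edgeR). In TAM short both were lower than control (-0.85 and -2.36, adjusted p = 0.036 and 0.00663, edgeR). As in DMBA, Ephx1 was called higher and Ephx2 lower than control in TAM long (1.29 and -3.78) and in DMBA+TAM (2.32 and -3.08).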

How the data were processed

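RNA-seq was performed by the authors on 10 poly-A libraries of organoids. Reads were mapped by the authors with TopHat to GRCm38.p6 (per the labels), and reads per gene were counted with HTSeq; the deposited table holds these counts, and FPKM that the authors computed from counts and gene length. Whether the counting used strand is not given in the sources used here, and 9 of the 30 named members overlap an exon of another gene (Cyp2s1, Cyp2u1 and Cyp4f18 among them). In 10 of the 30 named members, under 95% of the 100-base transcript pieces stand in no transcript of another gene. Besides Cyp2c68, Cyp2c69, Cyp2d9 and Cyp2d10, these are Cyp2c65, Cyp2c66, Cyp3a25, Cyp3a44, Cyp4f16 and Cyp4v3. Columns of the authors' own comparisons and group means were not used. From its 47074 lines, 5 fragments of split lines were left out.

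Total counts were 8828247 to 10923673 in 8 libraries and 1592366 and 1915270 in DMBA+TAM, where 3 counts equal 1.58 and 1.32 normalized CPM. Counts were tested with edgeR 4.0.16 (R 4.3.3): filterByExpr, TMM scaling, and a quasi-likelihood fit over all 10 libraries with 5 group means, and Benjamini-Hochberg adjustment over 16179 genes and a threshold of 0.05. Two-sided tests were used throughout. A fold against a group with no count was computed against 3 counts over the group, and against 1 to 3 counts as a ratio with an exact 95% interval, which covers counting error only. Named members have a group mean of at least 5 normalized CPM, or are among the 5 largest rises or falls of a comparison with at least 50 counts; of each list the 3 genes of the highest mean level are named. Members and lists were chosen with earlier results of these data known. Alternatives were DESeq2 1.42.0, library totals, no filter, the groups compared alone, a replicate block, limma 3.58.1 on log2(FPKM + 1) or log2(FPKM + 0.1), and each library left out; a fit without the DMBA+TAM libraries was added after seeing the data. Promoters are from RefSeq (63 members matched), and gene models from GENCODE M21. The edgeR fit and its calls were tested on simulated counts, drawn from the pooled mean of each gene with a small set of genes changed.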

Additional observations from a re-analysis of the deposited data

Results flagged for a closer look

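Cyp2d22 moved in opposite directions from control in the 2 tamoxifen sets. Its call in TAM long (log2 fold change 0.80) was lost without control 1 (0.52) or either TAM long library (0.61 and 0.95). Both TAM long libraries lay above control and both TAM short libraries below it, and TAM long exceeded TAM short by a log2 fold change of 3.04 ± 0.31 (adjusted p = 6.91e-05, edgeR's quasi-likelihood test), a direct test of that difference. TAM short and TAM long also differ in the letters S and L in their library names and in markers of small intestine and colon. The labels short and long therefore cannot be told apart from this split. In TAM long against control, tamoxifen and the split cannot be told apart either.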

How the results depend on the processing

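In all, 123 calls of named members were followed, and none changed direction under an alternative in which it had a value. Of these, 9 were lost with DESeq2, 5 with library totals, 11 and 6 with limma on log2(FPKM + 0.1) and log2(FPKM + 1), and 1 with no filter. With only the groups compared fitted, 3 were lost and 118 kept, so not all 123 had a value there. With each library left out in turn, calls were kept in 434 cases and lost in 58. The fit without the DMBA+TAM libraries, added after seeing the data, lost none of 77. Members higher in TAM short against control numbered 1, but 4 with no filter and 2 with only the groups compared, with DESeq2 and with limma on log2(FPKM + 0.1); members lower numbered 11, but 20 with no filter and 20 with only the groups compared. With each library left out in turn, where the lone library of a group is assumed to vary like the other groups, these counts ran from 0 to 1 higher and from 5 to 7 lower, and in DMBA+TAM against DMBA from 3 to 7 higher. The summed level in DMBA+TAM over control was 0.0683, 0.0960 with library totals and 0.121 as FPKM, and that in TAM short over control was 0.386 and, as FPKM, 0.442. The cause of these shifts was not tested.

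Scaling by library totals moved the median of all genes from 0.07 to 0.37 in DMBA, from 0.05 to 0.37 in TAM long and from -0.17 to 0.31 in DMBA+TAM against control, from -0.14 to 0.04 in DMBA+TAM against DMBA, and from 0.05 to 0.27 in TAM long against TAM short (log2). The share of calls that were higher went from 51.2% to 71.1% in DMBA, 50.5% to 72.0% in TAM long, 45.5% to 58.6% in TAM short, 45.1% to 62.4% in DMBA+TAM against control, 45.7% to 54.8% in DMBA+TAM against DMBA, and 52.0% to 69.9% in TAM long against TAM short.

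Replicate numbers are shared between groups, but the replicate differences of 2 groups correlated from -0.06 to 0.32, highest for DMBA with TAM long. They were not all over 0.1, so the numbers were not taken to pair the libraries. The fit with the replicate block lost 1 of the 123 calls, that of Cyp2u1 in DMBA+TAM against DMBA (log2 fold change -1.47). In DMBA+TAM, the floor of 3 counts over the group that was used for fold bounds equals 0.719 normalized CPM.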
